A study of Mus musculus with 2 samples.

Results

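A list of 41 genes of G2 and mitosis was followed in single-cell RNA sequencing of mouse tumors, out of 55450 genes in the deposited matrices. The members were fixed by symbol, and each of the 41 symbols matched 1 feature. No filter on measured values was applied to them, but the list was drawn up with earlier results of these data known. The tumors grew from EMT6, a mouse triple-negative mammary tumor line, after subcutaneous injection of 200000 cells into immunocompetent BALB/c mice. Of the groups in the study, 2 were analysed here, each as 1 library made from the tumors of 3 mice pooled. Both received LLY-283, an inhibitor of the arginine methyltransferase PRMT5, at 50 mg/kg for 3 days on and 4 days off, together with Olaparib, an inhibitor of PARP, at 50 mg/kg daily. The Combo group received anti-PD-1 antibody, which blocks a brake on T cells, at 200 µg every 3 days in addition, and the other group is called Olaparib + LLY-283. Untreated tumors were not analysed here. With 1 library per group, no test between groups was possible, the mice of a pool cannot be told apart, and every interval below is a 95% interval that covers counting error only.

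Cells pass from DNA synthesis (S phase) through G2 into mitosis when cyclins A2 and B switch on the kinase CDK1. The duplicated chromosomes are then condensed, attached to the spindle at their kinetochores and pulled apart once the anaphase-promoting complex, activated by CDC20, marks cyclin B and securin for degradation. The transcripts of these proteins accumulate in G2 and mitosis and are low in resting cells. Their promoters are known for the CHR element, which MuvB complexes bind, and for CCAAT boxes, which NF-Y binds. In tumors the genes serve as a measure of how many cells divide.

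The promoters are shown first, because the members share letters there that the choice of symbols did not use. Of the 41 members, 34 had a window of 300 bases in the RefSeq promoter table (GRCm38.p6), from 250 bases before the transcription start to 50 after it. The letters TTTGAA or TTTAAA (CHR) were found on either strand in 29 of the 34 (85.3%), against 30.6% of all 27025 genes with a window. CCAAT was found on either strand in 25 of the 34 (73.5%), against 41.1% of all genes, and 19 of the 34 (55.9%) held at least 2 copies, against 13.3%. In a list of S phase genes CHR was found in 28.1% and CCAAT in 65.6% (at least 2 copies in 40.6%), and in a list of other mitosis genes CHR in 61.9% and CCAAT in 64.3% (at least 2 copies in 35.7%). Both elements stood together in 24 of the 34 (70.6%), against 13.4% of all genes. For comparison, both stood together in 21 of 42 (50%) of the other mitosis genes and in 7 of 32 (21.9%) of the S phase genes. TTTAAA reads the same on both strands, and a CHR match can share at most 1 letter with a CCAAT match. A match is a description of the letters and not a bound site.

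Windows of 6 members are printed 5′ to 3′ from 170 bases before to 30 after the start, with CHR and CCAAT letters of either strand in capitals (reverse matches read TTCAAA and ATTGG). Cdk1 (chr10:69352883-69353082, minus strand) and Top2a (chr11:99024160-99024359, minus strand) stand for members with a small step in level from S phase to mitosis (below). Ube2c (chr2:164769759-164769958, plus strand), Cdc20 (chr4:118437314-118437513, minus strand), Plk1 (chr7:122159265-122159464, plus strand) and Cenpf (chr1:189688057-189688256, minus strand) stand for members with a large step.
Cdk1: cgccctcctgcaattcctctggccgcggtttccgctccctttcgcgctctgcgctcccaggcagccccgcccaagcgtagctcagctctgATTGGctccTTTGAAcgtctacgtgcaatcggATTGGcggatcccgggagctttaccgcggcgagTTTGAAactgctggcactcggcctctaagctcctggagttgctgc
Top2a: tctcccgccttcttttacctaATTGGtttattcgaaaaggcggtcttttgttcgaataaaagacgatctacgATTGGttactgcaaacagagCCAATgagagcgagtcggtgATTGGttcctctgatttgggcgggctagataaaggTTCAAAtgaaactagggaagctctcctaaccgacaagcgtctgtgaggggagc
Ube2c: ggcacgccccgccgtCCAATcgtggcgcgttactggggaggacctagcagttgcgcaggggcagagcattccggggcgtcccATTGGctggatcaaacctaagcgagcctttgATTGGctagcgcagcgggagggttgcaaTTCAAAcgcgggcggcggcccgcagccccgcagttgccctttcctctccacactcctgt
Cdc20: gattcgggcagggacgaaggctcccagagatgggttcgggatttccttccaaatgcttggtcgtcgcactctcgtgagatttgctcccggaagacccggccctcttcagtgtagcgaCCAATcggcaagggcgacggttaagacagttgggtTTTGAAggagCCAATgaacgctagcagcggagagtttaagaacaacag
Plk1: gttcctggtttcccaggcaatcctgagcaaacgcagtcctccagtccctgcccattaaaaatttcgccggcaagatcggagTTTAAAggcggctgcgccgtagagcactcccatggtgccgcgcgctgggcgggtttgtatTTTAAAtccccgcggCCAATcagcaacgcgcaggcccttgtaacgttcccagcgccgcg
Cenpf: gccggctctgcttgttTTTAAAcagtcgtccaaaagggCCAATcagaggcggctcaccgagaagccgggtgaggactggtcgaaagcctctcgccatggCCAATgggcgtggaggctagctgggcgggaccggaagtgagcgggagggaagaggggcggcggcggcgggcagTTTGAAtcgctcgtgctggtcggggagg
All 6 hold a CHR match that begins within 30 bases of the start, and all 6 hold at least 1 CCAAT match upstream of the start. These 6 are examples, and the place of matches was not counted over the members or over all genes. Other members differ: the only CHR match of Birc5 begins 220 bases before the start, and those of Mki67 begin 116 and 98 bases before it. Nuf2, Nusap1, Sapcd2 and Tacc3 held neither element in their windows.

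The Olaparib + LLY-283 library held 16115 cell barcodes and 147214934 UMIs (unique molecular identifiers, each a captured transcript), and the Combo library 7542 barcodes and 162522700 UMIs. After cells with under 200 genes or at least 20% mitochondrial UMIs were left out, 16029 and 5956 cells remained. Tumor cells had a median of 9623 UMIs in Olaparib + LLY-283 and 47526 in Combo, so cells were compared after thinning each to a fixed number of UMIs. A total of 39 barcodes occurred in both libraries, and without those cells the ratio of the summed members in tumor cells was 0.996. Each cell took its class from the UMIs of marker genes. Tumor cells (10938 and 2797) were those with the keratins Krt8 and Krt18 and no other lineage, macrophages (823 and 611) those with C1q and related genes, neutrophils (695 and 1205) those with S100a8 and S100a9, and cancer-associated fibroblasts (CAF, 243 and 84) those with Col3a1 and other collagens. Krt8 stood at 848 and 823 CPM (the UMIs of a gene scaled to all UMIs of the cells) in tumor cells. In all other cells together, with mixed cells (below) left out, it was at 143 and 123 CPM. These include cells that passed no marker threshold and may hold tumor cells, so keratins of single classes are given further below. Epcam, an epithelial marker, was at 3.57 and 3.26 CPM in tumor cells. A further 2547 and 740 cells passed no marker threshold and 521 and 300 were mixed, with markers of more than 1 lineage or of 1 lineage and many keratin UMIs.

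Summed over tumor cells, the 41 members had nearly the same level in both libraries. They made up 3845 CPM (3834 to 3856) in Olaparib + LLY-283 and 3843 CPM (3833 to 3853) in Combo, a ratio of Combo over Olaparib + LLY-283 of 1.00 (0.996 to 1.00). No member passed a 1.5-fold difference in either direction (0 of 41), while 4.24% of the 13866 genes with at least 100 UMIs were at least 1.5-fold higher in Combo and 2.4% at least 1.5-fold lower. The median log2 ratio of the members was 0.04, against 0.06 over all those genes. Because the libraries are deep, the counting interval of the ratio lay above 1 for 18 members, below 1 for 15 and held 1 for 8, but such intervals contain no difference between mice. Intervals were not counted over all genes, so these counts show nothing particular to the members. By sign alone, 22 members were higher and 19 lower in Combo, beside 8467 higher and 5399 lower of the 13866 genes. A list of 44 S phase genes was 1.07 times as high in Combo (1.07 to 1.08) and a list of 50 further mitosis genes 0.953 times (0.947 to 0.958), with 0 of 44 and 0 of 50 past 1.5-fold in either direction.

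The cyclins and their kinase were in sum slightly lower in Combo. Cdk1, the mitotic kinase itself, was at 159 CPM in Olaparib + LLY-283 and 145 CPM in Combo, a ratio of 0.911 (0.894 to 0.930). Ccnb1, the B-type cyclin that carries CDK1 into mitosis, was at 61.3 and 52.2 CPM, a ratio of 0.852 (0.825 to 0.880). Both genes were lower in Combo beyond counting error. Ccna2, the cyclin of S phase and G2, was at 74.2 and 70.9 CPM. Ccnb2 was at 71.0 and 73.1 CPM and Cdca3, which helps to degrade the CDK1 inhibitor WEE1, at 63.7 and 63.2 CPM, so these genes were nearly level. Cdc25c, the phosphatase that activates CDK1, ran the other way at 14.1 and 15.8 CPM. The reference also holds the pseudogenes Ccnb1-ps and Ccnb2-ps, so the split of reads between them and Ccnb1 or Ccnb2 is uncertain.

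The 5 mitotic kinases together had a ratio of 0.996 (0.977 to 1.01), in which single genes differed in direction. Aurka, the kinase of the spindle poles, was at 44.7 CPM in Olaparib + LLY-283 and 37.1 CPM in Combo (ratio 0.831, 0.800 to 0.863). Aurkb, the kinase of the chromosomal passenger complex, was at 33.6 and 36.9 CPM (1.10, 1.05 to 1.14), and Bub1, a kinase of the spindle checkpoint, at 41.1 and 45.4 CPM (1.11, 1.07 to 1.15). The related kinases Aurka and Aurkb therefore differed in opposite directions between the libraries. Plk1, which acts from mitotic entry to cytokinesis, was at 37.0 and 35.5 CPM, and Ttk, which starts the spindle checkpoint, at 12.7 and 13.3 CPM. Of the anaphase-promoting complex, Ube2c, its ubiquitin-conjugating enzyme, was at 324 and 281 CPM (0.867, 0.855 to 0.879), and Cdc20, its activator, at 106 and 110 CPM (1.04, 1.02 to 1.06). Ube2c overlaps the muscle gene Tnnc2 on the other strand, and whether counting used the strand is not given in the sources used here.

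Genes of chromosome structure were in sum 1.05 times as high in Combo (1.04 to 1.06). Top2a, the topoisomerase that untangles sister chromatids, was at 193 CPM in Olaparib + LLY-283 and 218 CPM in Combo (1.13, 1.11 to 1.15). Smc4, a core subunit of condensin, was at 259 and 282 CPM, and Mki67, which coats mitotic chromosomes, at 117 and 126 CPM. Hmgb2, a DNA-bending protein that non-dividing cells also make, was level at 513 and 507 CPM. The chromosomal passengers were the group with the highest ratio, 1.09 (1.08 to 1.11), with Birc5 (survivin) at 177 and 200 CPM and Cdca8 (borealin) at 109 and 112 CPM. At the centromere, Cenpa, the histone variant that marks it, was at 231 and 211 CPM and Cenpf at 166 and 165 CPM. The kinetochore motor Cenpe was at 59.7 and 64.1 CPM, while Ndc80 and Nuf2, which bind microtubules as partners, were at 29.6 and 33.4 CPM and at 20.2 and 20.9 CPM. The 5 centromere and kinetochore genes together had a ratio of 0.977 (0.966 to 0.987).

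The lowest and the highest ratio of any member were found among the spindle and cytokinesis genes. Sapcd2, which acts in spindle orientation, was at 11.7 CPM in Olaparib + LLY-283 and 8.96 CPM in Combo (0.765, 0.709 to 0.826), the lowest ratio. Ect2, which activates RhoA for the contractile ring, was at 27.5 and 33.0 CPM (1.20, 1.15 to 1.25), the highest. Nusap1, a microtubule bundler, was at 64.7 and 51.9 CPM (0.802, 0.777 to 0.828). It overlaps the antisense gene Oip5 at its start, so its count carries the same uncertainty on strand as Ube2c. Tpx2, which activates Aurora A on the spindle, was at 121 and 114 CPM, Hmmr at 72.8 and 83.3 CPM, and the motor Kif11, which pushes the spindle poles apart, at 48.4 and 53.0 CPM. The other spindle genes (Kif2c, Tacc3, Ckap2, Ckap2l, Dlgap5 and Gtse1) had log2 ratios between -0.18 and 0.13. Prc1, which bundles the central spindle, was at 137 and 128 CPM, and the motor Kif23 at 41.9 and 39.3 CPM. Kif20a was at 38.2 and 43.7 CPM, Kif20b at 57.5 and 61.3 CPM and Anln, a scaffold of the contractile ring, at 87.9 and 88.3 CPM.

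**Figure D1:**
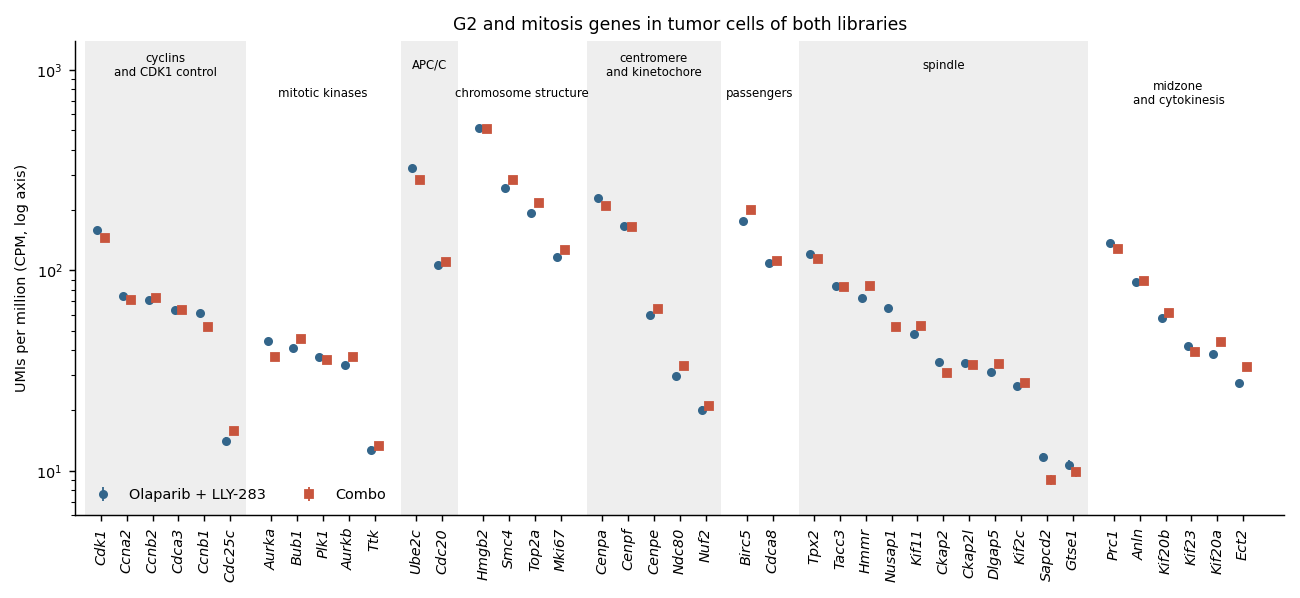
Level of each of the 41 members in tumor cells (CPM, log axis) in the Olaparib + LLY-283 (circles) and Combo (squares) libraries, grouped by role, with exact 95% Poisson intervals that are mostly smaller than the points. The 2 libraries lie side by side for every member, and no pair is 1.5-fold apart. Gtse1, at 10.7 and 9.81 CPM, is the lowest in Olaparib + LLY-283, and Sapcd2 is the lowest in Combo. Hmgb2 is the highest in both, at 513 and 507 CPM.

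The share of tumor cells that carried several members depended on the depth at which it was read. At 1000 UMIs per cell, 3 or more of 40 members (Hmgb2 left out) were found in 3866 of 10903 tumor cells of Olaparib + LLY-283 (35.5%, 34.6 to 36.4) and in 964 of 2748 of Combo (35.1%, 33.3 to 36.9). The difference, Combo minus Olaparib + LLY-283, was -0.38 percentage points (-2.36 to 1.63), within counting error. Over 20 repeats of the thinning the shares ran from 35.2% to 36.4% and from 34.2% to 36.0%. With 5 or more members the shares were 20.1% and 19.4%. At 5000 UMIs the shares with 3 or more members were 77.0% and 68.3%, a difference of -8.78 points (-10.8 to -6.84), and without thinning they were 85.8% and 97.0%. The deeper thinning left out 1573 tumor cells of Olaparib + LLY-283 and 141 of Combo, and in the cells that remained the difference at 1000 UMIs was -2.40 points (-4.44 to -0.32). Cells with 3 or more members had more UMIs, with medians of 12048.5 against 8636 in Olaparib + LLY-283 and 59441.5 against 43484 in Combo. The part of this link between depth and division in the difference was not tested.

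To place the members within the cell cycle, tumor cells thinned to 5000 UMIs were sorted by genes outside the list. Cells with at least 5 UMIs of 44 S phase genes and 50 other mitosis genes were called S-leaning where S phase genes gave most of these UMIs (a share of 0.667 or more), and mitosis-leaning where they gave few (0.333 or less). The S phase genes with the most UMIs were Slbp, Pcna and Tyms, and the mitosis genes Cks2, Cenpw and Pttg1. S-leaning cells were 30.9% of tumor cells in Olaparib + LLY-283 and 32.5% in Combo, and mitosis-leaning cells 16.3% (15.6 to 17.1) and 14.4% (13.1 to 15.8). Cells between these states were 37.5% and 31.2%, and cells with few UMIs of either list 15.2% (14.5 to 16.0) and 22.0% (20.4 to 23.6). The last class was thus 6.71 points (5.01 to 8.48) larger in Combo. At 2000 UMIs, where 10761 and 2719 cells could be used, and with 2 UMIs as the minimum, the same difference was 4.15 points (2.54 to 5.82). These shares describe 2 libraries of pooled mice.

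The cells had been sorted by other genes of mitosis, so a higher level of the members in mitosis-leaning cells is no finding on its own. All 41 members were higher in mitosis-leaning than in S-leaning tumor cells, in both libraries, with every counting interval above 0 on the log2 scale. Their sum was 1818 CPM in S-leaning, 4087 CPM in intermediate and 7656 CPM in mitosis-leaning cells of Olaparib + LLY-283, and 1918, 4387 and 7793 CPM in Combo. In cells with few UMIs of either list it was 648 and 557 CPM. The median log2 difference between mitosis-leaning and S-leaning cells over the members was 2.31 in Olaparib + LLY-283 and 2.22 in Combo. The members were far from alike, and their order was nearly the same in the 2 libraries (Spearman's rho 0.928, Pearson's r 0.920, over 41 genes that are measured in the same cells and are not independent). Of the 10 members with the largest log2 differences, 8 were shared by both libraries, and of the 10 with the smallest, 7.

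Among the members with the smallest step from S phase to mitosis were 3 of the 4 genes of chromosome structure. Smc4 differed by 1.21 on the log2 scale in Olaparib + LLY-283 and 0.95 in Combo, Hmgb2 by 1.28 and 1.25, and Top2a by 1.54 and 1.28. Cdk1 belonged with them, at 1.31 and 1.16, and was already at 104 and 97.9 CPM in S-leaning cells. Ube2c, with a larger step, was at 98.6 and 88.9 CPM in S-leaning cells. Gtse1 had the smallest step of all 41 members in Olaparib + LLY-283, at 1.21 (0.81 to 1.61), and was at 1.49 (0.67 to 2.33) in Combo. Ttk (1.61 and 0.96) and Aurkb (1.72 and 1.37) were also among the 10 smallest in both libraries. In cells with few UMIs of either list, Smc4 was at 20.9% and 22.6% of its mitosis-leaning level, Hmgb2 at 16.8% and 16.1%, Gtse1 at 16.0% and 24.0%, Cdk1 at 15.0% and 12.7% and Top2a at 7.88% and 6.21%. Ccna2 followed at log2 differences of 1.86 and 1.73, before Ccnb1 at 2.75 and 2.69. The other B-type cyclin, Ccnb2, was at 1.85 and 2.22, level with Ccna2 in Olaparib + LLY-283 and with an interval that overlapped that of Ccna2 in Combo. The step was thus larger for Ccnb1 than for Ccna2, beyond their intervals in both libraries, but not for Ccnb2.

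The members with the largest steps came from several groups, and groups of the spindle and kinetochore also held small ones (Gtse1, Tacc3 and Nuf2). Cenpf went from 37.1 CPM in S-leaning to 436 CPM in mitosis-leaning cells of Olaparib + LLY-283 and from 45.0 to 438 CPM in Combo, log2 differences of 3.56 (3.43 to 3.69) and 3.28 (3.06 to 3.52). Cenpe differed by 3.11 (2.91 to 3.32) and 3.58 (3.21 to 3.98), and Nusap1 by 3.32 and 3.15. The largest of all was Sapcd2, at 3.67 (3.20 to 4.20) and 3.90 (2.83 to 5.37), from few UMIs. Plk1 (2.82 and 3.02), Cdc20 (2.76 and 3.05), Ube2c (2.86 and 2.90) and Hmmr (2.84 and 2.93) had overlapping intervals in both libraries. By role, the median step was smallest for chromosome structure (1.41 and 1.26) and largest for the anaphase-promoting complex (2.81 and 2.97). Ndc80 and Nuf2, whose proteins form 1 complex, differed by 2.21 and 1.66 in Olaparib + LLY-283 but by 2.00 and 1.85, with overlapping intervals, in Combo.

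**Figure D2:**
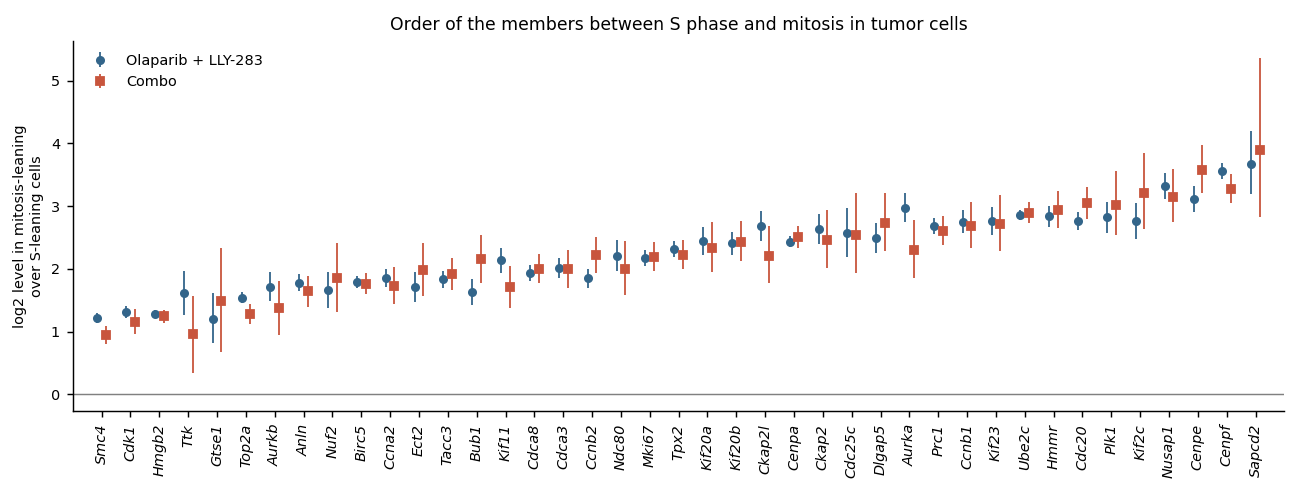
Log2 difference between the level in mitosis-leaning and in S-leaning tumor cells for each member, in the Olaparib + LLY-283 (circles) and Combo (squares) libraries, with exact 95% intervals for counting error, sorted by the mean of both libraries. All 41 members lie above 0 in both, from Smc4 at 1.21 and 0.95 to Sapcd2 at 3.67 and 3.90.

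The largest gap between the libraries in this order was that of Aurka, 0.67 on the log2 scale. With each mitosis-leaning cell thinned to 5000 UMIs it was at 104 CPM in Olaparib + LLY-283 and 68.1 CPM in Combo. When all UMIs of the same cells were summed, which gives deep cells more weight, it was at 116 (111 to 120) and 103 (98.6 to 107) CPM. Aurka was thus lower in the mitosis-leaning cells of Combo in both sums, by unlike amounts. The thinned values were more than 1.5-fold apart and rest on 796 and 130 UMIs. The part of the weighting of cells in this was not tested. Over all UMIs of the 1531 and 382 mitosis-leaning cells, 0 of 41 members were past 1.5-fold, beside 2.63% of 10689 genes higher in Combo and 1.47% lower. Here Kif20a, a motor of cytokinesis, had the highest ratio at 1.29 (1.21 to 1.37), followed by Ect2 at 1.28 (1.19 to 1.39), and Sapcd2 the lowest at 0.807 (0.724 to 0.899). The directions of Ect2, Sapcd2 and Aurka were those seen over all tumor cells, of which these cells are a part. Other members changed sides, such as Ccna2, Plk1 and Tpx2, with ratios of 1.03, 1.03 and 1.01 here and intervals that held 1. Here the interval lay above 1 for 25 members, below 1 for 6 and held 1 for 10, beside 18, 15 and 8 over all tumor cells. Intervals were not counted over all genes in these cells either. The median log2 ratio of the members here was 0.11, against 0.06 over all genes, so genes as a whole also leaned towards Combo.

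**Figure D3:**
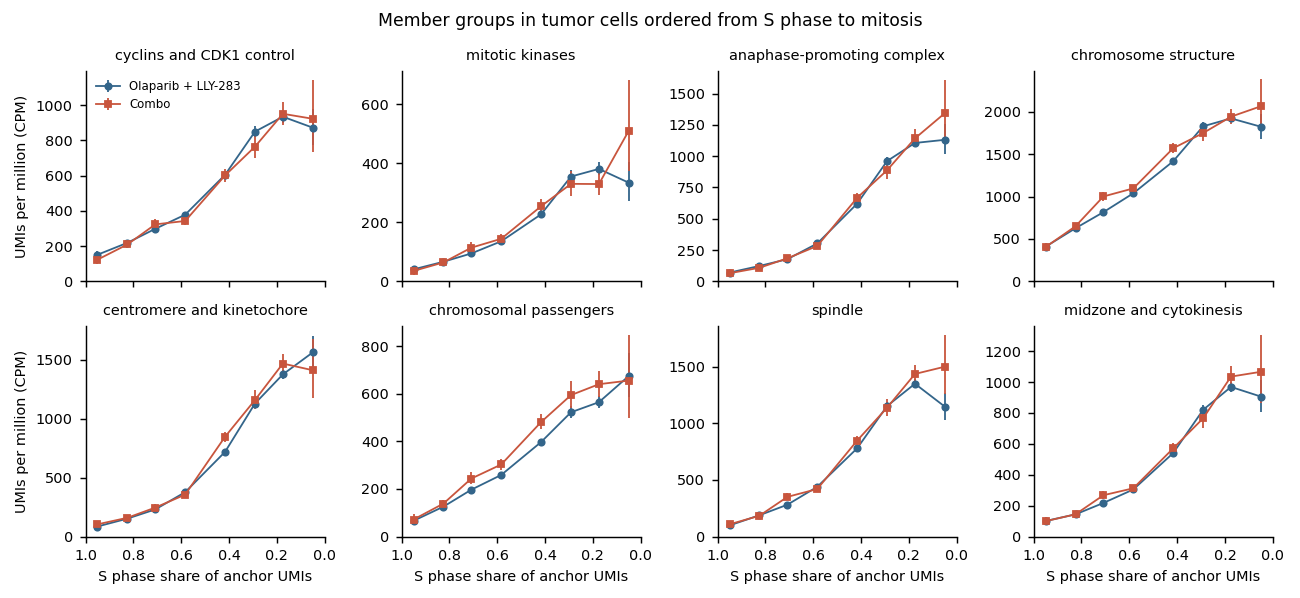
Summed level of each group of members (CPM) in tumor cells thinned to 5000 UMIs, against the share of S phase genes among the UMIs of both reference lists, from S phase on the left (1.0) to mitosis on the right (0.0), in the Olaparib + LLY-283 (circles) and Combo (squares) libraries with exact 95% Poisson intervals. All 8 groups are higher at the mitosis end than at the S phase end in both libraries, and chromosome structure genes have the highest sum throughout.

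Outside the tumor cells the members were found at lower levels in most classes. With Hmgb2 left out, the 40 members summed to 3332 and 3336 CPM in tumor cells, 1482 (1434 to 1532) and 1426 (1400 to 1453) CPM in macrophages and 1248 (1187 to 1312) and 1063 (1016 to 1112) CPM in CAF. Macrophages thus stood at 44.5% and 42.8% of the tumor level. Neutrophils, which no longer divide, stood at 49.1% in Olaparib + LLY-283 (1636 CPM, 1543 to 1733) and 29.4% in Combo (980 CPM, 941 to 1020). The keratins of tumor cells were also found in these classes, at 16.1% and 12.7% of the tumor level in macrophages and 28.8% and 17.4% in neutrophils, although cells with many keratin UMIs had been set aside as mixed. The part of free tumor RNA in these levels was not tested.

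Hmgb2 had a distribution of its own. In neutrophils it was at 493 CPM (443 to 548) in Olaparib + LLY-283 and 644 CPM (612 to 677) in Combo, 96.1% and 127% of its tumor level. It made up 39.7% of all member UMIs in Combo neutrophils but 13.2% in Combo tumor cells. At 1000 UMIs it was found in 46.5% of 1089 Combo neutrophils, where Mki67 was found in 3.95% and Cdk1 in 4.41%. Hmgb2 is left out of all counts of members per cell. Among the other members, Kif23 was at 95.3% of its tumor level in Combo neutrophils and 57.4% in those of Olaparib + LLY-283, beside medians over the members of 29.6% and 51.7%, and Gtse1 at 105% in Olaparib + LLY-283. Sapcd2 was lowest in Combo neutrophils, at 4.59%. The values of Gtse1 and Sapcd2 in neutrophils rest on few UMIs.

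**Figure D4:**
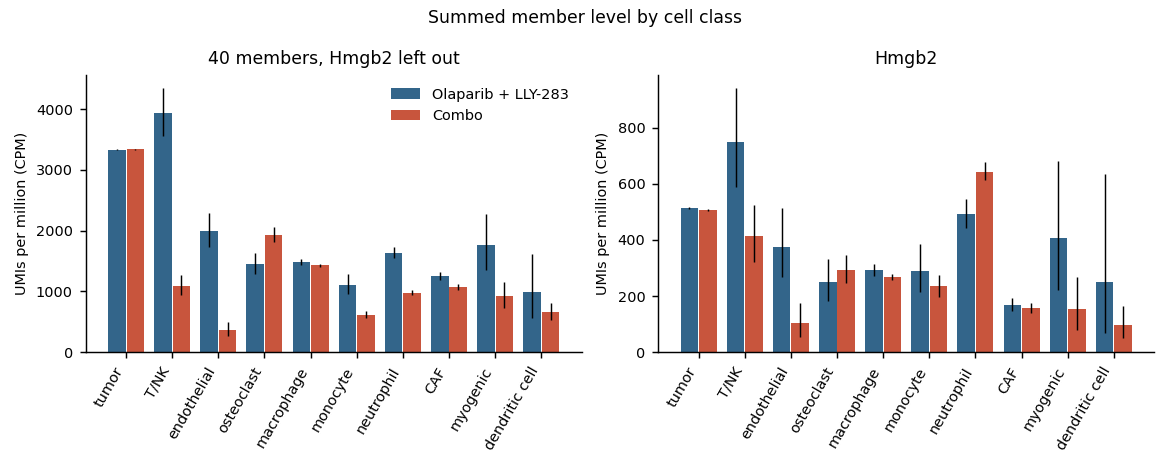
Summed level of 40 members without Hmgb2 (left) and of Hmgb2 (right) in each cell class of both libraries, in CPM, with exact 95% Poisson intervals. Tumor cells stand at 3332 and 3336 CPM on the left, and neutrophils at 493 and 644 CPM on the right, close to or above tumor cells for Hmgb2 alone.

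Which non-tumor cells divided was asked by the number of members found in each cell at 1000 UMIs, with neutrophils beside them as cells that should not divide. In Combo, 50 of 585 macrophages (8.55%, 6.41 to 11.1) carried 3 or more members, close to the 85 of 1089 neutrophils (7.81%, 6.28 to 9.56), so at this cutoff the macrophages were not above background. With 5 or more members they separated: 29 of 585 macrophages (4.96%, 3.34 to 7.04) against 4 of 1089 neutrophils (0.367%, 0.100 to 0.938). The median depth was 11508 UMIs in these macrophages and 1921 in neutrophils before thinning. In Olaparib + LLY-283, 83 of 706 macrophages (11.8%, 9.47 to 14.4) carried 3 or more members, a share that was 10.1% to 11.3% in 20 repeats of the thinning, beside 21 of 117 neutrophils (17.9%, 11.5 to 26.1). There, 35 of 706 macrophages (4.96%, 3.48 to 6.83) carried 5 or more members, but so did 9 of 117 neutrophils (7.69%, 3.58 to 14.1), and the macrophages were not above the neutrophils. These 9 neutrophils had S100a8 and S100a9 at 13428 CPM (12022 to 14953), against 28245 (27588 to 28914) CPM in those with under 3 members. In Combo the 4 such neutrophils had 76387 (70357 to 82796) against 94358 (93951 to 94767) CPM. Whether the 9 cells are neutrophils alone, and so a clean background, was not tested. The Olaparib + LLY-283 library left out 578 of 695 neutrophils with under 1000 UMIs, and its median depths were 2221 UMIs in macrophages and 679 in neutrophils. At this depth the shares of macrophages with 5 or more members were alike in the libraries, and the interval of the difference ran from -2.38 to 2.48 percentage points. At other depths they were not: at 2000 UMIs the shares were 11.6% and 6.52%, a difference of -5.09 points (-8.83 to -1.53), and at 5000 UMIs, which left out 738 of 823 macrophages of Olaparib + LLY-283 and 108 of 611 of Combo, they were 49.4% and 16.7%.

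In macrophages a large part of the member UMIs lay in the cells with 5 or more members, which the choice by members itself favors. The 35 such cells were 4.25% of macrophages of Olaparib + LLY-283 and held 37.4% of their member UMIs and 7.74% of all their UMIs. The 29 such cells of Combo were 4.75% and held 54.1% and 9.56%. In Combo neutrophils the 4 such cells (0.332%) held 1.13% of the member UMIs and 0.319% of all UMIs. In neutrophils of Olaparib + LLY-283 the 9 such cells were 1.29% and held 12.2% and 3.49%. In that library a concentration in few cells was thus not particular to macrophages. Genes that did not enter this choice were also higher in these cells. Other mitosis genes were at 2961 CPM (2719 to 3218) in the 35 cells against 417 (389 to 448) in macrophages with under 3 members, and at 3169 (3044 to 3299) against 319 (306 to 333) CPM in Combo. S phase genes were at 2010 against 833 CPM and at 2617 against 788 CPM. In tumor cells with 5 or more members the other mitosis genes were at 3138 and 3206 CPM. Neutrophils of Olaparib + LLY-283 showed the same pattern, with other mitosis genes at 2346 (1781 to 3033) against 672 (574 to 782) CPM and S phase genes at 2144 against 1183 CPM. At 5000 UMIs, 37 of 503 Combo macrophages (7.36%, 5.23 to 10.0) carried 10 or more members, and up to 27 of 40 were found in 1 cell. In Olaparib + LLY-283, 24 of 85 did (28.2%, 19.0 to 39.0), but so did 7 of 18 neutrophils of that depth.

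Cells entered the macrophage class through C1q and related markers, so that these cells hold them is no finding, and their levels are given as a description. The C1q genes C1qa, C1qb and C1qc, which encode the complement component that macrophages make, were at 5555 CPM (5388 to 5725) in Combo macrophages with 5 or more members and at 5799 (5741 to 5857) in those with under 3. In Olaparib + LLY-283 they were lower in the cells with members, 3584 (3317 to 3867) against 5405 (5301 to 5511) CPM. Mrc1, the mannose receptor, was lower in both libraries, at 215 against 678 CPM and 411 against 945 CPM, and Ms4a7 was at 715 against 757 CPM and 639 against 970 CPM. Cd68, a lysosomal protein, was at 161 against 482 CPM and 270 against 532 CPM, and Adgre1 (F4/80) at 59.1 against 152 CPM and 120 against 178 CPM. Csf1r, the receptor for the macrophage growth factor CSF1, was at 269 against 355 CPM and 410 against 456 CPM. Ly6c2, a monocyte gene, had 0 and 1 UMIs in the cells with members, but was also low in those with under 3, at 10.6 and 8.07 CPM. Ccr2, another monocyte gene, was present, at 161 against 211 CPM and 260 against 348 CPM. Keratins were at 204 (144 to 280) against 140 (124 to 158) CPM in Olaparib + LLY-283, with overlapping intervals, and higher in the cells with members in Combo, at 178 (149 to 211) against 104 (96.4 to 112) CPM, beside 967 and 916 CPM in tumor cells. No keratin UMI was found in 18 of the 35 cells and in 2 of the 29 deeper cells. Among macrophages with under 3 members, 424 of 623 and 188 of 535 had none. The part of macrophages captured together with tumor cells in this result was not tested. Among macrophages with no keratin UMI, the share with 3 or more members was 9.01% and 4.08%.

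All 41 members were found in the macrophages with 5 or more members in both libraries. Their levels followed those of tumor cells with 5 or more members (Spearman's rho 0.964 in Olaparib + LLY-283 and 0.929 in Combo, over 41 genes). Both sets of cells were chosen by 40 of these members, so the likeness is given as a description only. Top2a was at 473 CPM (379 to 583) and 813 CPM (750 to 880), Mki67 at 381 (298 to 481) and 731 (672 to 795) CPM, and Ube2c at 790 (667 to 928) and 526 (475 to 580) CPM. Top2a and Mki67 were thus higher, and Ube2c lower, in the 29 such cells of Combo than in the 35 of Olaparib + LLY-283. These intervals cover counting error only and no difference between cells. With Hmgb2 left out, the 3 macrophages with the most member UMIs held 12.1% and 15.0% of those of the whole class. Over all macrophages, 35 members had at least 100 UMIs. Of these, 0 were at least 1.5-fold higher in Combo, beside 6.55% of 8139 genes, and 1 was at least 1.5-fold lower, beside 4.72%. That member was Ckap2, a microtubule-stabilizing protein, at 15.8 and 8.82 CPM (ratio 0.558, 0.371 to 0.852), from 38 and 70 UMIs. Mki67 was at 73.2 and 107 CPM over all macrophages (1.46, 1.24 to 1.72).

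CAF held a smaller group of such cells. Of 236 CAF of Olaparib + LLY-283, 9 carried 5 or more members (3.81%, 1.76 to 7.12), and of 72 CAF of Combo, 3 did (4.17%, 0.868 to 11.7). As with macrophages, the share in Olaparib + LLY-283 was not above that of its neutrophils (7.69%), while in Combo neutrophils it was 0.367% (interval up to 0.938, against a lower bound of 0.868 in CAF). These cells were 3.70% and 3.57% of all CAF. They held 26.8% and 28.7% of the member UMIs of the class, and 4.73% and 4.72% of all its UMIs. Their collagen genes Col3a1 and Col5a2 were at 19743 and 23500 CPM, beside 20066 and 17929 CPM in CAF with under 3 members. Other mitosis genes were at 3191 (2752 to 3682) and 2587 (2254 to 2956) CPM against 478 and 389 CPM. Keratins in them were at 102 (37.4 to 222) against 171 (147 to 197) CPM and 71.9 (26.4 to 156) against 136 (119 to 155) CPM. Of the 41 members, 39 were found in the 9 cells and 39 in the 3 cells.

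In the smaller classes few cells decided the level. T and NK cells of Olaparib + LLY-283 had the highest sum of any class, 3936 CPM (3551 to 4350) against 1092 (939 to 1262) CPM in Combo. In Olaparib + LLY-283, 3 of the 69 cells held 68.1% of the member UMIs, and without them the sum was 1525 CPM (1266 to 1820). In Combo the 3 top cells of 27 held 43.4%, and without them the sum was 871 CPM (711 to 1056). Keratins in T and NK cells were at 28.7% of the tumor level in Olaparib + LLY-283 and 5.89% in Combo. With 5 or more members, 5 of 32 cells with at least 1000 UMIs (15.6%, 5.28 to 32.8) stood against 0 of 26 in Combo, which allows a share of up to 11.5% (3 cells of 26). The 5 cells had Cd3e, Cd3g, Trac and Trbc2 at 601 CPM (310 to 1049), against 1912 (1549 to 2335) CPM in those with under 3 members. The count of 0 in Combo and its limit hold for 1000 UMIs only. At 2000 UMIs, 3 of 9 T and NK cells of Olaparib + LLY-283 and 2 of 26 of Combo carried 5 or more members. At 5000 UMIs, 2 of 3 and 5 of 11 did. Endothelial cells were at 1998 CPM against 370 CPM in Combo, and 3 of 27 cells held 78.3% of their member UMIs in Olaparib + LLY-283. Without the 3 top endothelial cells the sum was 784 CPM (572 to 1049.6), beside 371 CPM (229 to 567) in Combo without its 3 top cells. Osteoclast-marker cells were at 1450 and 1925 CPM, with 5 of 37 and 2 of 24 cells at 5 or more members. The 2 Combo cells held 74.9% of the member UMIs and 17.2% of all UMIs of their class. They had Acp5 and Ctsk at 6086 CPM, beside 23525 CPM in the cells with under 3 members. Monocytes had 2 of 63 and 0 of 81 cells with 5 or more members at 1000 UMIs, the latter allowing up to 3.70% by the same limit of 3 cells. At 2000 UMIs these were 1 of 27 and 0 of 77, and at 5000 UMIs 1 of 3 and 12 of 64. Dendritic cells (8 and 16) and myogenic cells (15 and 23 with 1000 UMIs) were too few for a share, and B, mast and erythroid cells numbered at most 6 in either library.

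**Figure D5:**
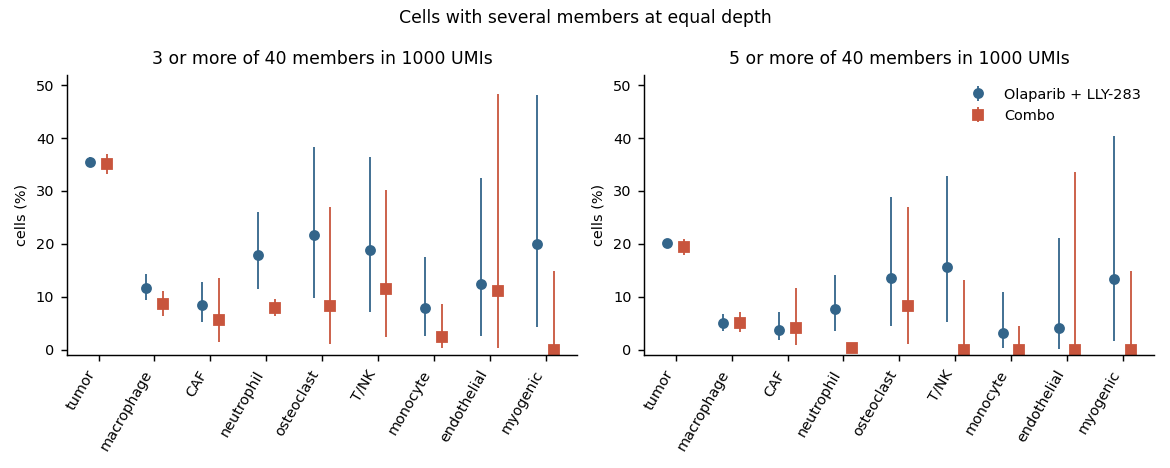
Share of cells (%) with 3 or more (left) or 5 or more (right) of 40 members after thinning to 1000 UMIs, by cell class, in the Olaparib + LLY-283 (circles) and Combo (squares) libraries, with exact 95% Clopper-Pearson intervals for counting error. Tumor cells stand at 35.5% and 35.1% on the left. On the right macrophages stand at 4.96% in both libraries, and neutrophils at 7.69% in Olaparib + LLY-283 and 0.367% in Combo.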

How the data were processed

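The authors deposited, per library, a matrix of UMI counts per gene and cell from 10x 3′ chemistry, with no normalization. The matrix header names Cell Ranger 6.1.2, while the study's methods name a later version, and the submitters' processing notes name bcl2fastq 5.0.1, Seurat 4.1.0 and the build mm10. All 55450 gene identifiers are in GENCODE M21. The depth of each library stands in the report.

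A cell was used where 200 or more genes were found in it and mitochondrial genes gave less than 20% of its UMIs. A cell took a class where its marker UMIs per 10000 passed a threshold with at least 2 markers found (3 for CAF). Cells with markers of more than 1 lineage, or of 1 lineage and keratins at 4 per 10000 or more, were mixed, and cells with none and at least 2 keratin UMIs, at 2 per 10000 or more, were tumor cells. The thresholds were set after the data were seen. Members, reference lists and markers were chosen with earlier results of these data known. By rule the named genes were all 41 members, the 3 genes of each reference list with the highest CPM in tumor cells, and class markers. Cells with markers of 2 classes served as the main guard against doublets. Scrublet's own threshold called 0 cells in both libraries, so as an alternative the cells with the highest scores, as many as the expected rate of doublets (2055 and 284), were left out.

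CPM were computed from summed counts with exact Poisson intervals, shares with exact Clopper-Pearson, ratios with exact conditional binomial and differences in share with Newcombe intervals, all at 95%. These intervals and the limit of 3 cells for a share of 0 cover counting error only. Log2 ratios used 0.5 added UMIs. Thinning drew UMIs without replacement, and shallower cells were left out. The fold counts, intervals and thinning were tested on simulated data. Scripts ran in Python 3.11.15 with scanpy 1.11.5, scipy 1.17.1 and numpy 2.4.6. Alternatives changed the cell filter, doublets, classes (Leiden clusters without cell cycle genes, resolution 1.3), thinning, cutoffs and totals.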

Additional observations from a re-analysis of the deposited data

How the results depend on the processing

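No paired analysis was possible because each group is 1 library, and for the same reason no replicate could be left out. The difference in the share of tumor cells with 3 or more members (Combo minus Olaparib + LLY-283) changed sign, and was -3.38 points at 2000 UMIs, -8.78 at 5000 and 11.2 without thinning. No member passed 1.5-fold under any alternative, all of which used the summed UMIs of tumor cells. In mitosis-leaning cells thinned to 5000 UMIs, which were not among these alternatives, Aurka did (104 and 68.1 CPM). The ratio of summed members in tumor cells lay on both sides of 1, and was 0.982 without the cells of the highest doublet scores, 1.00 with classes from clusters and 0.991 as a mean over cells. The correlation of the order of members was 0.792 at 2000 UMIs.

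The share of macrophages with 3 or more members, in Olaparib + LLY-283 and Combo, was 22.3% and 16.5% at 2000 UMIs, 68.2% and 45.5% at 5000, 23.1% and 16.2% with 2 or more members, 4.96% in both with 5 or more, and 9.01% and 4.08% in cells with no keratin UMI. In Olaparib + LLY-283 it was also 16.3% with classes from clusters and 28.2% with 10 or more members at 5000 UMIs. The macrophage level as a percent of the tumor level was 32.6% and 36.2% without the highest doublet scores, where Combo was the higher library and not the lower, 69.5% and 56.5% with classes from clusters, which set no mixed cells aside, 46.1% and 44.1% with Hmgb2, 41.3% and 40.6% as a mean over cells, and 47.4% in Olaparib + LLY-283 with at least 1000 genes per cell. The causes were not tested. Alternatives on unassigned cells, shared barcodes, keratin-free cells, mitosis-leaning cells and 10 or more members were chosen after seeing the data. With neutrophils at a median of 679 UMIs, the background share in Olaparib + LLY-283 rests on 117 cells.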

Other observations

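Cells that passed no marker threshold carried the members at close to the tumor level. Without Hmgb2 the sum was 2910 CPM (2879 to 2942) in 2547 such cells of Olaparib + LLY-283, 87.3% of the tumor level. In 740 such cells of Combo it was 2762 CPM (2723 to 2801), 82.8% of the tumor level. Keratins in these cells were at 15.6% and 16.8% of the tumor level. Cells of no other lineage that passed the keratin threshold had been called tumor cells. The low keratins of the cells left over thus follow from the sorting and are no finding. At 1000 UMIs, 673 of 2139 (31.5%) and 107 of 362 (29.6%) carried 3 or more members. Mixed cells had 2126 CPM (2079 to 2173) and 2235 CPM (2183 to 2288), and 88 of 476 (18.5%) and 35 of 278 (12.6%) of them carried 3 or more members.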
